A study of Mus musculus with 14 samples.

Results

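Cytosolic ribosomal proteins are the protein subunits of the ribosomes that translate nuclear mRNAs in the cytoplasm. Their genes were taken by symbol, as Rpl or Rps followed by a number with an optional a, l or x, together with Rplp0, Rplp1, Rplp2 and Rpsa. Pseudogene symbols ending in -ps and the Rps6k kinases were left out. This gave 83 of the 55357 genes counted, 51 of the large subunit and 32 of the small subunit.

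The libraries came from livers of male C57BL/6 mice of 5 to 6 weeks and 21.5 to 25 g, and all livers were taken 24 h after an intraperitoneal injection. The model group (8 libraries) was given 10 µg/kg of LPS, the endotoxin of Gram-negative bacteria, and 300 mg/kg of D-GalN, which depletes hepatocytes of uridine nucleotides and blocks their transcription; the pair brings on acute liver failure. The control group (6 libraries) was given saline. Polyadenylated RNA was sequenced, and no label says that every library is a separate animal, so the spread behind every p-value may be technical.

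Each ribosome carries one copy of almost every ribosomal protein, and the proteins are made in matched amounts. Their mRNAs are short and abundant, and most begin with a run of pyrimidines (C and T in DNA), the 5' terminal oligopyrimidine or TOP motif, through which the kinase mTOR and the protein Larp1 control how strongly they are translated. Translation is not measured by these libraries, which show mRNA levels alone.

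To show the pyrimidine run, the annotated start sites of 5 genes that have one were read from RefSeq promoter windows (build GRCm38.p6). Capitals mark the longest unbroken run of at least 7 C or T near the start, and the annotated first base is position 16 of each 30-base window. Rpl7a and Rps6 encode a large and a small subunit protein, Rps18 is a common reference gene, and Rps27 and Rps27l are a pair of paralogs. The windows are at chr2:26910792-26910821 (plus strand) for Rpl7a, chr4:86857353-86857382 (minus) for Rps6, chr17:33955651-33955680 (minus) for Rps18, chr3:90213634-90213663 (minus) for Rps27 and chr9:66946071-66946100 (plus) for Rps27l.
Rpl7a: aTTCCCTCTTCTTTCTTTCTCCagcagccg
Rps6: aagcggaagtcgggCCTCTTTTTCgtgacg
Rps18: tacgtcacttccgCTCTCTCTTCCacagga
Rps27: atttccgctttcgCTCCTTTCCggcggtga
Rps27l: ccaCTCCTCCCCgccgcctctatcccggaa
The run of Rps6 spans 10 bases, that of Rps18 spans 11 and that of Rps27 spans 9, and each of these covers the annotated first base. The run of Rps27l spans 9 bases and lies wholly before it. The RefSeq table held 73 windows for 61 of the 83 genes. A run of at least 7 C or T on the transcribed strand within 10 bases either side of the start was found in 28 of those windows (38.4%), against 12.2% of all 32851 promoter windows. No such run was found in the windows of Rplp0, Rpsa, Rpl5, Rpl11 or Rps3, so the 5 windows shown do not stand for the whole set. The letters CCGGAAG, on either strand and without overlap to the run being required, were found anywhere in the window from 250 bases before to 50 after the start in 35.6% of ribosomal protein windows and 8.86% of all windows. These matches describe letters in annotated windows and are no evidence of a bound factor.

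At the level of single genes, ribosomal protein mRNAs were mostly not called different between model and control livers. Of the 83 genes, 78 had enough counts to be tested. In edgeR's quasi-likelihood test with Benjamini-Hochberg adjustment over all 12915 tested genes, Rps10 and Rpl7a rose in the model livers, none fell, and 76 were not called at an adjusted p under 0.05. Over all tested genes, 47.9% were called (26.6% higher and 21.3% lower). At an unadjusted p under 0.05 there were 3 ribosomal protein genes, against 54.8% of all genes tested. None of the 78 had groups whose ranges of CPM (library-scaled counts, with TMM factors) did not overlap, against 23.2% of all genes. Estimates were positive for 15 genes and negative for 63, and the median log2 fold change was -0.15, beside 0.0099 over all genes tested.

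A missed call does not show equal levels here. The median standard error (SE) of the log2 fold change was 0.35 for the 78 genes and 0.29 for all genes. The 95% interval lay inside a 2-fold change in either direction for 43 of the 78 genes and inside 1.5-fold for 3. It reached a 1.5-fold decrease for 68 genes and a 1.5-fold increase for 29. Being whole livers, the samples do not separate fewer cells of a type from less RNA per cell.

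**Figure D1:**
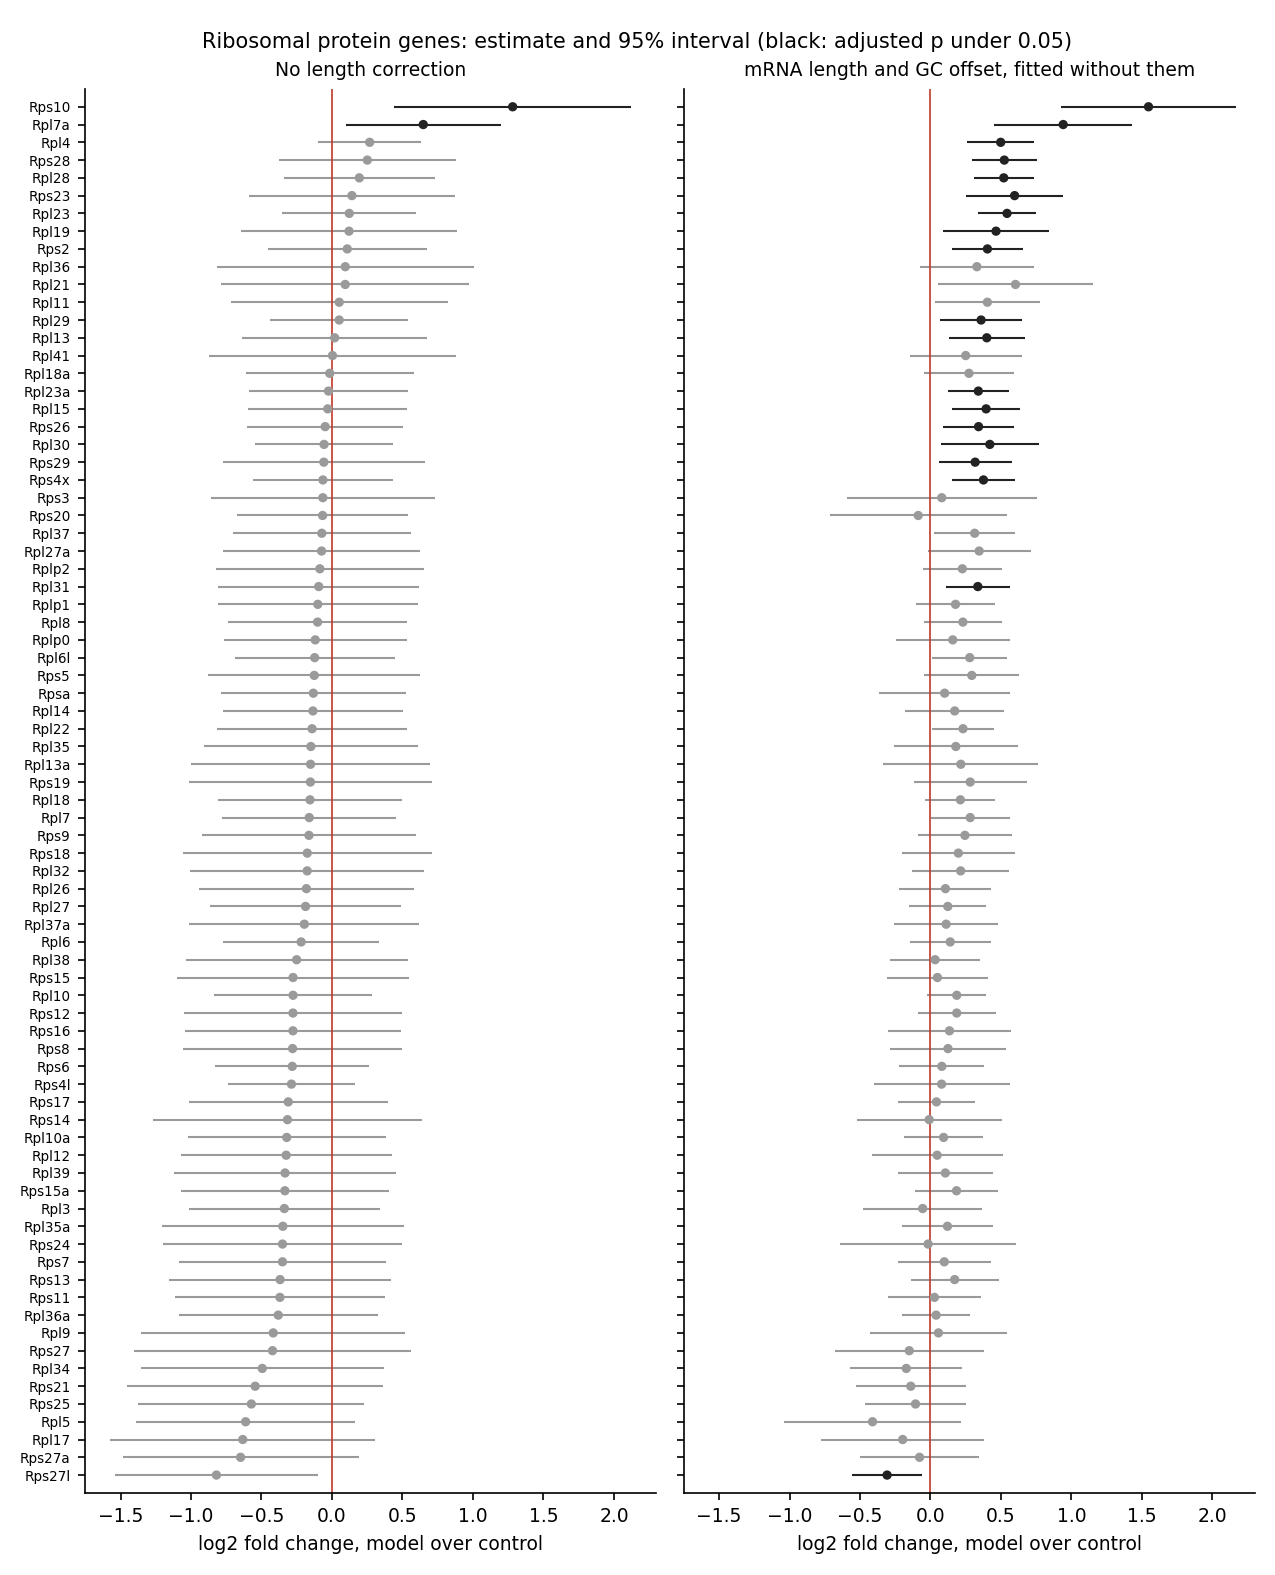
Log2 fold changes (model over control) of the 78 tested ribosomal protein genes with 95% intervals, without a length correction on the left and with an mRNA length and GC offset on the right; black marks an adjusted p under 0.05. On the left 2 genes are black, on the right 19.

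The spread behind these intervals was shared by nearly all ribosomal protein genes. Summed over the 83 genes, the level in the model libraries was 17714 CPM at the lowest, 28649 at the median and 47018 at the highest, a 2.65-fold range. In the control libraries it was 14489, 33494 and 57099 CPM, a 3.94-fold range. The control range enclosed the model range. Control libraries 1 and 4 and model libraries 1, 3 and 5 were high, and control libraries 3 and 6 and model libraries 2, 7 and 8 were low. In the 5 high libraries between 77 and 78 of the 78 tested genes were above the mean of their own group, and in the 5 low libraries between 0 and 1 were. Both extremes lay in the control group: control 6 was the lowest of the 14 libraries for 71 of the 78 genes, and control 4 was the highest for 44 and control 1 for 19.

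Both subunits, each a part of the sum, moved with it. Large subunit genes added to 10350, 16234 and 26740 CPM in the model group (lowest, median and highest) and to 8490, 18807 and 31392 CPM in the control group. Small subunit genes added to 7364, 12415 and 20346 CPM in the model group and to 5999, 14687 and 25895 CPM in the control group. The ratio of large to small subunit sums ran from 1.30 to 1.42 in model and from 1.17 to 1.43 in control, so the ranges overlapped. It was 1.17 and 1.22 in the high control libraries 1 and 4, and 1.43 and 1.42 in the low control libraries 3 and 6. In model it was 1.30, 1.30 and 1.32 in the high libraries 1, 3 and 5, and 1.42, 1.41 and 1.33 in the low libraries 2, 7 and 8. Rpl7a was the 1 call among 46 tested large subunit genes, whose median log2 fold change was -0.13. Rps10 was the 1 call among 32 small subunit genes, whose median was -0.28.

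**Figure D2:**
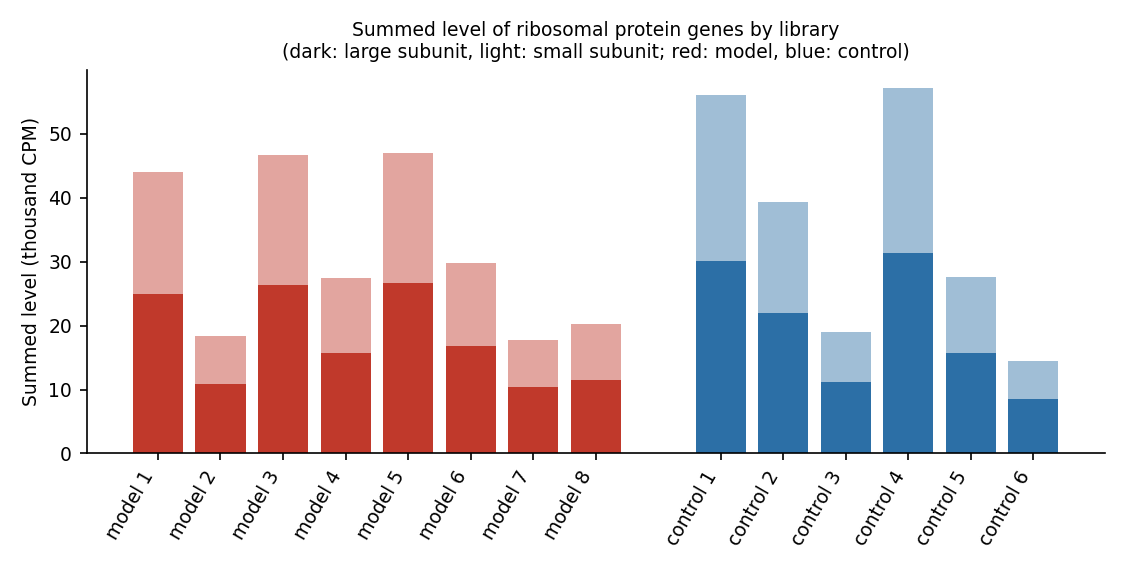
Summed CPM of the 83 ribosomal protein genes in each of the 8 model and 6 control libraries, large subunit dark and small subunit light. Libraries within a group differ more than the groups do: the sums run from 17714 to 47018 CPM in model and from 14489 to 57099 CPM in control.

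Ribosomal protein mRNAs are short, and the level of other short mRNAs also varied between libraries. The median length of the principal annotated mRNA was 740 bases for the 78 tested genes and 2612 bases for all genes tested. A length index was computed per library from genes other than these: the median log2 CPM deviation of 1419 genes with an mRNA under 1 kb minus that of 5358 genes over 3 kb. Model libraries had an index of -1.26 to 0.52, and control libraries of -1.02 to 1.21. The 5 libraries with a high ribosomal protein sum had an index between 0.38 and 1.21, and the 5 low ones between -1.26 and -0.39. The order was not the same throughout: control 2 had an index of 0.75, above models 1, 3 and 5, but a lower ribosomal protein sum (39367 CPM) than these. The points share a library and its depth, and the 5 low libraries were the 5 with the most counts in genes, from 13351474 in control 3 to 16639972 in model 7, while control 1 had the fewest (7914120). The part of depth in the index and in the ribosomal protein sum was not tested.

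**Figure D3:**
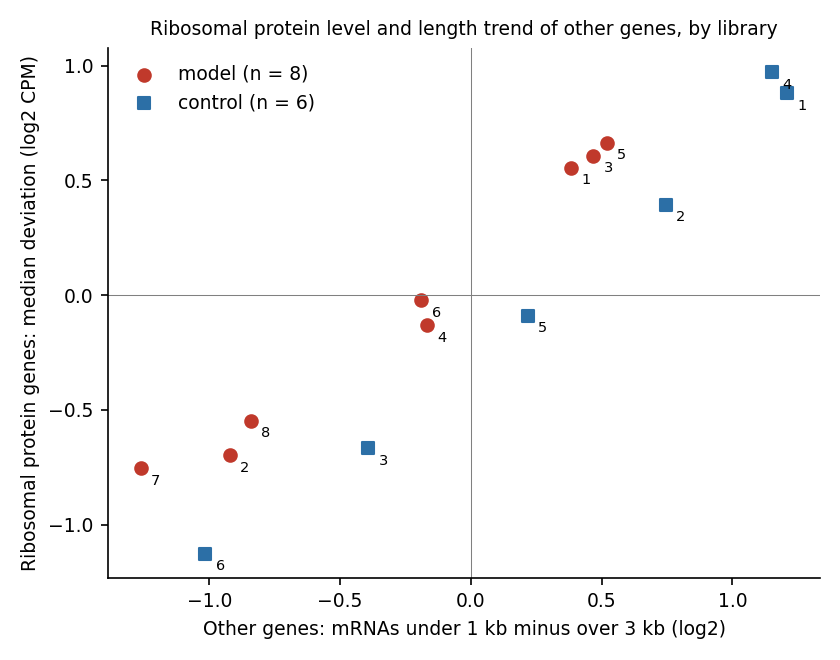
Median log2 CPM deviation of the tested ribosomal protein genes against the length index of other genes (log2, mRNAs under 1 kb minus over 3 kb), one point per library, numbered by replicate. The libraries with a high ribosomal protein sum lie at the upper right and those with a low sum at the lower left, from model 7 at an index of -1.26 to control 1 at 1.21.

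The difference between groups also followed mRNA length. Other genes under 1 kb had a median log2 fold change of -0.30, with 33.8% called, and other genes over 3 kb a median of 0.25. The 61 tested ribosomal protein genes under 1 kb had a median of -0.16, with 3.28% called. In the class of 500 to 750 bases the median was -0.20 for 21 ribosomal protein genes and -0.37 for 497 other genes. In the class of 750 to 1000 bases it was -0.09 for 22 ribosomal protein genes and -0.33 for 603 others. In these 2 classes the ribosomal protein median was less negative than that of other genes. Under 500 bases the medians were -0.20 (18 genes) and -0.23 (319 others). Classes of exonic length over all transcripts went both ways. At 1000 to 1500 bases the medians were -0.18 for ribosomal protein genes and -0.29 for others, and at 1500 to 2000 bases -0.08 and -0.18. At 2000 to 3000 bases they were -0.16 and -0.12. At 3000 to 5000 bases they were -0.16 for 13 ribosomal protein genes and -0.01 for 3470 others. None of these differences was tested.

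**Figure D4:**
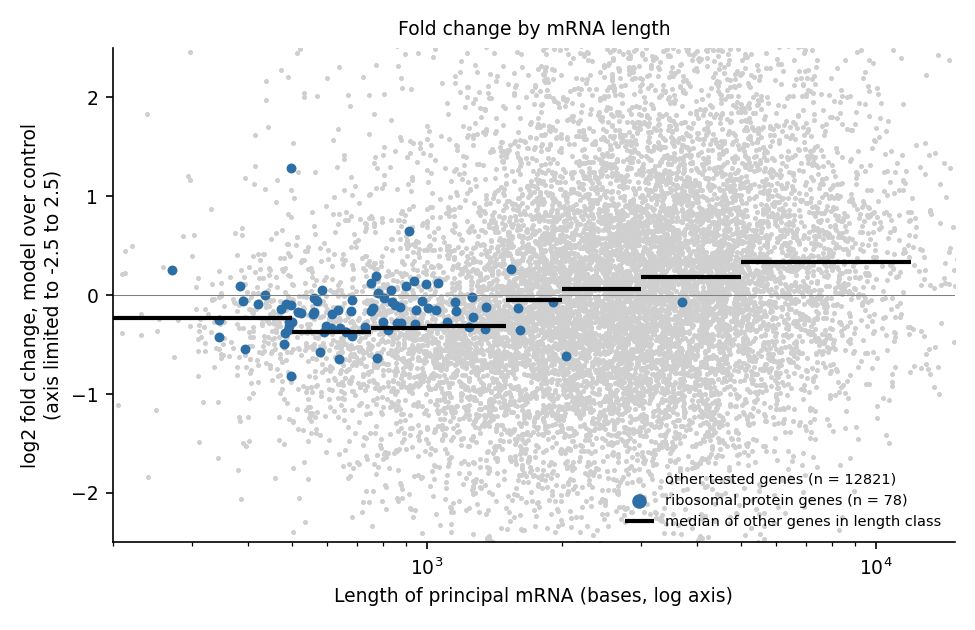
Log2 fold change (model over control) against length of the principal mRNA on a log axis, for other tested genes (grey) and ribosomal protein genes (blue), with the median of other genes per length class as black bars. The bars run from -0.37 at 500 to 750 bases to 0.34 above 5000 bases.

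A second fit used an offset that takes out, library by library, the smooth trend of log2 CPM with mRNA length and GC content, drawn from genes that are not ribosomal protein genes. This offset was chosen after seeing the data. It also takes out any difference between the groups that follows mRNA length or GC content. Higher or lower in this fit is thus relative to other genes of similar mRNA length and GC content. With it the median within-group standard deviation of log2 CPM of the 78 genes went from 0.73 to 0.28, while that of all genes went from 0.52 to 0.44. The summed level then ran from 26082 to 38397 CPM in model and from 21715 to 37425 CPM in control, and the ranges still overlapped. In edgeR's test with this offset, 18 of the 78 genes were called higher and 1 lower after Benjamini-Hochberg adjustment, against 29.4% and 23.2% of all genes (52.6% in either direction), and the median log2 fold change was 0.19. The offset planned earlier, on exonic length of all transcripts together, gave 7 higher and none lower, with a median of -0.02. The direction of the median thus depended on the length correction.

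Beside Rps10 and Rpl7a, the larger changes among genes called higher with the mRNA offset were those of Rps23 (log2 fold change 0.60), Rpl23 (0.54), Rps28 (0.52), Rpl28 (0.52) and Rpl4 (0.50). The gene called lower was Rps27l. These genes were picked by their values in that fit. Rps4x had a log2 fold change of -0.06 without the offset (adjusted p = 0.837 in edgeR's test) and of 0.38 with it (adjusted p = 0.00636).

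Rpl7a encodes a large subunit protein, and its gene hosts small nucleolar RNAs in its introns. It was measured at 111 CPM (lowest), 214 (median) and 372 (highest) in the model libraries and at 91.0, 136 and 161 CPM in the control libraries. Model 5 was the highest, at 372 CPM against 228 in the next library, and the groups overlapped. Rpl7a rose by a log2 fold change of 0.65 (SE 0.26), with an adjusted p of 0.0491 in edgeR's test. The log2 fold change was 0.47 without model 5 and between 0.57 and 0.73 without any other 1 library. The call was lost when any 1 of model 1, 3, 4, 5 and 7 or control 1, 2, 4, 5 and 6 was left out, and adjusted p ran from 0.0322 to 0.109 over the 14 omissions of 1 library. With the mRNA offset the log2 fold change was 0.94 (adjusted p = 0.00251).

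Rps10 encodes a small subunit protein, and its row held few counts: 153 over the 8 model libraries and 45 over the 6 control libraries. Its level was 0.897, 1.30 and 2.88 CPM in model (lowest, median, highest) and 0.274, 0.636 and 1.28 CPM in control. The lowest model libraries lay inside the control range. It rose by a log2 fold change of 1.28 (SE 0.40, edgeR adjusted p = 0.0136). In the annotation supplied, which is of another build than the counts, 20.6% of its exonic bases are shared with RPS10-NUDT3 on the same strand. A further 8.18% are shared with Gm15420 on the other. Each file sets entries marked ambiguous apart from the gene rows, 3.49% to 4.90% of entries in model files and 3.18% to 5.95% in control files. How many of these belong to Rps10 is not given. Rps3, another small subunit gene, had a model median of 665 CPM, and whether the Rps10 row covers its main mRNA cannot be told from these counts.

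Rps27l encodes a paralog of Rps27 and is known as a target of p53. It was measured at 99.7, 161 and 268 CPM in model (lowest, median, highest) and at 100, 289 and 587 CPM in control. The highest control libraries lay above every model library, and the lower ones overlapped. Its log2 fold change was -0.82 (SE 0.34, 95% interval -1.54 to -0.10), with an adjusted p of 0.0566 in edgeR's test, just outside the threshold. It was called lower in 11 of 30 other settings. Its partner Rps27 was measured at 37.6, 144 and 269 CPM in model and 60.7, 193 and 446 CPM in control, with a log2 fold change of -0.42 (SE 0.47), which was not called.

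The acidic stalk of the large subunit, which recruits elongation factors, is built of Rplp0, Rplp1 and Rplp2. Rplp0 was measured at 670, 1068 and 1770 CPM in model and at 592, 1249 and 1940 CPM in control. Rplp1 was measured at 259, 407 and 723 CPM in model and at 171, 479 and 786 CPM in control. Rplp2 was measured at 112, 185 and 319 CPM in model and at 71.4, 215 and 398 CPM in control. The groups overlapped for all 3, and their log2 fold changes of -0.12, -0.10 and -0.09 were not called. Rplp2 had the widest interval of the 3, from -0.83 to 0.65.

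Rpl5 and Rpl11 form a particle with the 5S RNA and bind Mdm2 when ribosome assembly fails. Neither was called, and their 95% intervals overlapped. Rpl5 was measured at 375, 636 and 1072 CPM in model and at 402, 888 and 2115 CPM in control, with the highest value in control. Its log2 fold change was -0.61 (95% interval -1.39 to 0.16). In the annotation supplied 24.3% of its exonic bases lie across from Fam69a on the other strand, and the strand setting of the counting is not given in the sources used here. Rpl11 was measured at 285, 546 and 1072 CPM in model and at 236, 524 and 969 CPM in control, with a log2 fold change of 0.05 (95% interval -0.72 to 0.82).

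Among proteins of the large subunit body, Rpl4, which lines the exit tunnel, had the smallest SE of the 78 genes (0.17). Rpl4 was measured at 698, 786 and 1094 CPM in model and at 582, 716 and 865 CPM in control, and the groups overlapped. Its log2 fold change was 0.27 (95% interval -0.10 to 0.63), and with the mRNA offset 0.50 (edgeR adjusted p = 0.00124). Rpl3, which sits at the peptidyl transferase centre, had a log2 fold change of -0.34 (SE 0.32). Rpl10, which joins the subunit late in its assembly, had a log2 fold change of -0.28 (SE 0.27), and Rpl39, another tunnel protein, -0.33 (SE 0.37). None of these was called.

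Rpl41 encodes the smallest ribosomal protein and had the highest level per length, at 2399 CPM per kb of mRNA over all 14 libraries. It was measured at 422, 982 and 1988 CPM in model and at 449, 915 and 1873 CPM in control. Its log2 fold change was 0.0034 (SE 0.42), and its interval ran from -0.87 to 0.88. Rps18 followed at 1647 CPM per kb of mRNA, with 360, 788 and 1585 CPM in model and 343, 852 and 1802 CPM in control. Its log2 fold change was -0.18 (SE 0.42), and Rps15 and Rpl36, also among the highest per length of exon, had -0.28 (SE 0.39) and 0.09 (SE 0.43).

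In the small subunit, Rps6, the substrate of the S6 kinases, was measured at 362, 527 and 793 CPM in model and at 362, 661 and 987 CPM in control. The ranges overlapped and the log2 fold change was -0.28 (95% interval -0.83 to 0.27). Rps3, at the mRNA entry channel, had a log2 fold change of -0.06 (SE 0.38). Rpsa had -0.13 (SE 0.31) and Rps19, which is mutated in Diamond-Blackfan anaemia, -0.15 (SE 0.41). Rps27a, made as a fusion with ubiquitin, had -0.65 (95% interval -1.49 to 0.19).

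Of the tested ribosomal protein genes, 53 are not singled out above or below by the rule for named genes. Their log2 fold changes ran from -0.63 to 0.25, 9 positive and 44 negative, with SEs of 0.23 to 0.45 and no adjusted p under 0.227 in edgeR's test. Rps25, of the small subunit, was measured at 275, 470 and 808 CPM in model (lowest, median, highest) and at 215, 674 and 1443 CPM in control. The control group thus held both the lowest and the highest value. Rps28, also of the small subunit, had the largest positive estimate of the 53, with 52.9, 84.4 and 127 CPM in model and 32.4, 70.7 and 118 CPM in control. With the mRNA offset 66 of the 78 estimates were positive and 12 negative, and of the 18 called higher there, 7 had a negative estimate without it.

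Levels per length differed widely although one copy of each protein enters a ribosome. Over all 14 libraries the median of the 78 genes was 466 CPM per kb of mRNA. A level over 500 CPM per kb was found for 35 genes and one under 100 for 6: Rpl21, Rpl6l, Rps20, Rps4l, Rpl13a and Rps10, named after their values were seen. The length used is that of 1 annotated mRNA per gene, which for Rps20 was 3706 bases.

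The tissue-restricted paralogs were near the limit of counting. Rpl3l, known from heart and skeletal muscle, had 26 counts over all 14 libraries. Rpl39l and Rpl10l, known from testis, had 24 and 0 counts. Rpl32l had 39 counts. None of these was tested. Rps4l, a paralog of Rps4x, was tested at 12.9 CPM at the lowest and 18.5 at the median in model and 15.4 and 23.7 CPM in control, with overlapping ranges and a log2 fold change of -0.29 (SE 0.22) that was not called.

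Some rows of core ribosomal proteins held few counts. Rpl24 had 10 counts in all and was not tested, and 47.0% of its exonic bases are shared with Gm28037 on the same strand. Rpl13a was measured between 4.23 and 16.1 CPM in model and between 4.21 and 22.6 CPM in control, and 29.4% of its exonic bases are shared with Gm45713. Larger shares, with genes on the other strand, were found for Rpl35 (66.2%) and Rpl23a (59.7%), which had 64983 and 52124 counts. The part of overlap in any of these levels was not tested. Ribosomal protein genes also have many processed copies: 322 rows carried pseudogene symbols. Of these 70 were tested and none was called in edgeR's test, against 47.9% of all genes. None reached an unadjusted p under 0.05 (54.8% of all genes did), and the median of those 70 was -0.20 (log2). Reads aligned to several places made up 13.9% to 18.3% of all entries in model files and 13.4% to 18.6% in control files and were not assigned to genes, so single rows are uncertain where copies are near-identical.

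Other proteins of the cytosolic ribosome carry symbols outside the rule, among them Rack1, Fau and Rps3a1. Of these 9 genes none was called in edgeR's test, against 47.9% of all genes. None had an unadjusted p under 0.05 (54.8% of all genes did), and their median log2 fold change was -0.23. Rack1, the scaffold on the small subunit head, was between 360 and 1067 CPM in model and between 334 and 1431 CPM in control, with a log2 fold change of -0.27 (SE 0.35).

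Genes that build ribosomes were examined in the same fit. Of 34 genes for ribosomal RNA synthesis, modification and subunit assembly, 19 rose and none fell, against 26.6% and 21.3% of all genes, and their median log2 fold change was 0.81. Rrp12, an export and processing factor, was between 3.91 and 23.1 CPM in model and between 0.579 and 4.21 CPM in control, with a log2 fold change of 2.21 (SE 0.46, edgeR adjusted p = 0.000797). Nop58, a core protein of the box C/D small nucleolar particles, was between 28.5 and 96.4 CPM in model and between 9.63 and 16.4 CPM in control, so its groups did not overlap, and its log2 fold change was 2.06 (SE 0.27). Between 14 and 22 of the 34 were higher in every setting except the scaling to the ribosomal protein sum, which gave 7 and in which 25.2% of all genes were called either way. These mRNAs are longer, with a median of 2544 bases, and 21 were higher with the mRNA offset.

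Of 22 other mRNAs known for a pyrimidine start, such as those of translation factors, 5 rose and none fell, near the 26.6% of all genes called higher; the list's median was -0.03 (log2). Pabpc1, the poly(A)-binding protein, was between 201 and 430 CPM in model and between 87.7 and 226 CPM in control, with a log2 fold change of 1.15 (SE 0.25, edgeR adjusted p = 0.00119). Hnrnpa1, a splicing protein, was between 45.2 and 74.5 CPM in model and between 31.8 and 39.3 CPM in control, with no overlap and a log2 fold change of 0.79 (SE 0.16). The count was 2 with library totals or upper-quartile factors, and 0 when libraries were scaled to the ribosomal protein sum. The most abundant of the list, elongation factor Eef1a1, was between 5473 and 10904 CPM in model and between 6297 and 16456 CPM in control and was not called.

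Among 16 genes that regulate ribosomal protein synthesis, 4 rose and 3 fell, shares near the 26.6% and 21.3% of all genes. Myc, a transcription factor that drives ribosome production, was between 31.5 and 103 CPM in model and between 1.48 and 4.71 CPM in control, with a log2 fold change of 4.59 (SE 0.36). Trp53, which encodes p53, was between 14.5 and 55.1 CPM in model and between 5.02 and 10.8 CPM in control, with a log2 fold change of 1.79 (SE 0.35). Neither gene's groups overlapped. Mtor was between 7.41 and 10.8 CPM in model and between 12.7 and 36.1 CPM in control, with a log2 fold change of -0.99 (SE 0.23, edgeR adjusted p = 0.00173). Without control 6, the highest control library, it was -0.64 (adjusted p = 0.00759). Eif4ebp2, a translation repressor that mTOR inactivates, had a log2 fold change of -0.94 (SE 0.28), and with the mRNA offset it was -0.71 (SE 0.38) and not called (adjusted p = 0.123). Larp1, which binds the pyrimidine start, and Mdm2, the ubiquitin ligase of p53, also rose. Rps6kb2, which encodes an S6 kinase, also fell, with a log2 fold change of -0.62 (SE 0.19, edgeR adjusted p = 0.0132) and overlapping groups.

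Mitochondrial ribosomal proteins, which make the separate ribosomes inside mitochondria, served as a comparison. Of 77 tested, none rose and 34 fell, against 26.6% and 21.3% of all genes; the list's median was -0.63 (log2). Mrps26 was between 8.68 and 18.2 CPM in model and between 15.98 and 46.0 CPM in control, so the groups overlapped, with a log2 fold change of -1.33 (SE 0.26). The count depended on which control libraries were kept. Without controls 1 and 4, which also leaves fewer libraries, it was 14, with a median of -0.35, and 16.1% of all genes were lower. With library totals it was 61, with 30.6% of all genes lower. Without control 6 it was 54 (21.5% of all genes), and without control 1 or without control 2 it was 23 (19.0% and 19.1%). With the mRNA offset it was 38 (23.2% of all genes), with a median of -0.41. The median mRNA length of these genes was 1280 bases, longer than the 740 of the cytosolic ribosomal proteins. Respiratory chain subunits, with a median mRNA length of 694 bases, had 8 of 78 lower and none higher, with a median of -0.43 that came to -0.07 with the mRNA offset.

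**Figure D5:**
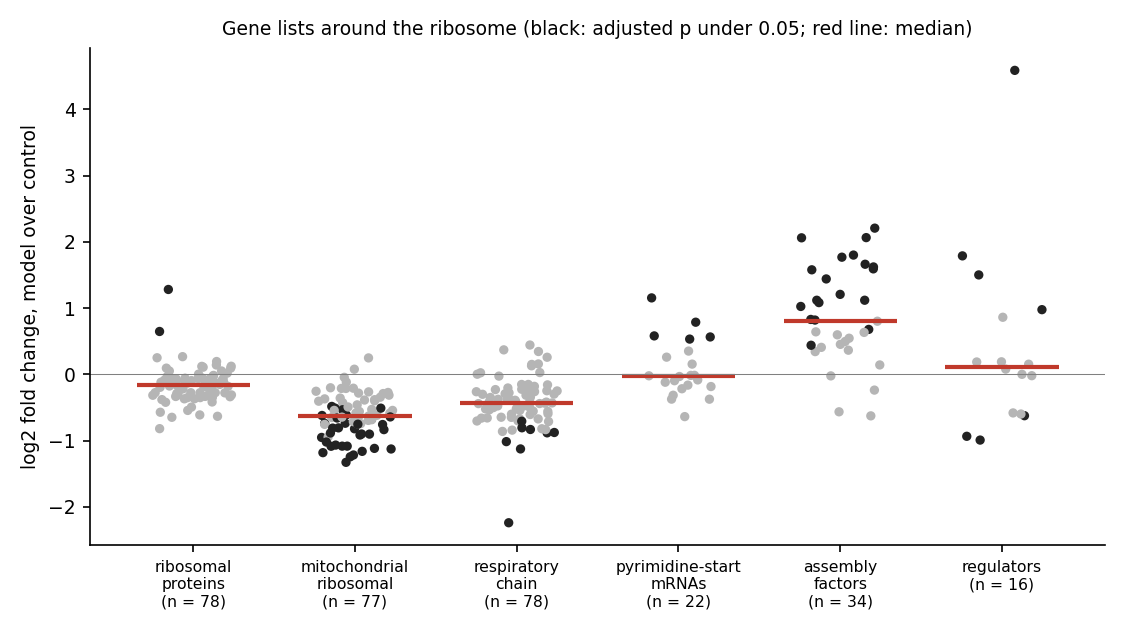
Log2 fold changes (model over control) of tested genes in 6 groups, black where the adjusted p is under 0.05, with the median as a red line. The median is -0.15 for cytosolic ribosomal proteins, -0.63 for mitochondrial ones and 0.81 for assembly factors.

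Levels of cell type markers differed between the groups. Over all tested genes 26.6% were called higher and 21.3% lower, and the counts of markers stand beside those shares. All 8 neutrophil markers rose, with a summed level of 1889 to 5529 CPM in model and 5.45 to 25.6 CPM in control. Lcn2 (248 to 4032 CPM in model, 1.42 to 16.9 in control) and S100a9 (683 to 1760 and 0.889 to 11.3) weighed most in that sum. Of 6 monocyte and macrophage markers 5 rose, all 4 tested T and NK cell markers rose, all 4 cholangiocyte markers rose and all 4 erythroid markers rose (1194 to 25479 CPM against 418 to 1591). Of 4 tested B and plasma cell markers 1 rose, near the share of all genes. Kupffer cell and endothelial markers went both ways: of 5 Kupffer cell markers 2 rose and 2 fell, and of 5 endothelial markers 2 rose and 2 fell. Of 9 hepatocyte markers 3 rose, not far from the share of all genes, and none fell. Their sums were 83912 to 95307 CPM in model and 57177 to 75287 CPM in control, so the labelled tissue was present in every library. Marker mRNA does not separate more cells of a type from more RNA per cell. The part of these cell types in any ribosomal protein or assembly factor level was not tested.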

How the data were processed

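Raw read counts per gene were deposited by the authors, 1 file per sample for 8 model and 6 control livers. Reads were aligned with HISAT2 to GRCm39, per the submitters' processing notes. Of the counting program, strand setting and annotation release, nothing is stated in the sources used here. The 5 summary lines of each file name no gene and stayed out of library sizes and tests (27.4% to 45.6% of entries). Counts in genes were 10329469 to 16639972 per model library and 7914120 to 14463540 per control library.

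The whole table was tested with edgeR 4.0.16 (R 4.3.3): filterByExpr (12915 of 55357 genes), TMM factors, a robust quasi-likelihood fit on group alone, and p-values adjusted by Benjamini-Hochberg over the whole table. Log2 CPM used a prior count of 2. SE is the log2 fold change over the root of F, and 95% intervals use its t distribution. The code was tested on simulated data. Exonic and mRNA lengths and GC content came from GENCODE annotation of GRCm38, matched by identifier for 99.9% of tested genes and all 78 tested ribosomal protein genes. The length offset used lowess curves (span 0.3). Libraries of a group were compared: chi-square over degrees of freedom was at least 23.3 in 43 pairs, so none was a duplicate.

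Members and lists were chosen with earlier results of these data known. Genes named in the text were called genes with the largest changes, the 5 highest per kb of exon, a set fixed by name, and up to 2 called genes each way of each list (28 ribosomal protein genes). Genes picked otherwise are Rack1, Eef1a1, Larp1, Mdm2, Rps6kb2, Mrps26, Rpl24, Rpl32l, Rps25 and those listed for the offset, chosen after their values were seen. Alternatives used limma 3.58.1 and DESeq2 1.42.0, other scalings and filters, a replicate block, length offsets and omitted libraries. Lists are described by counts and medians, with no list test.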

Additional observations from a re-analysis of the deposited data

Results flagged for a closer look

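In 72 groups of library values of the genes named, the highest or lowest library stood apart from the rest in 2, where chance gives about 1 in 20. For Rpl7a, model 5 was the highest of the model libraries at 372 CPM, with the next at 228 and the lowest at 111, and the Rpl7a call was lost without it. For Mtor, control 6 was the highest control library at 36.1 CPM, with the next at 18.1 and the lowest at 12.7. The log2 fold change of Mtor was -0.64 without control 6, against -0.99 with all libraries, and between -1.08 and -0.95 without any other 1 library. It stayed called in each omission, with adjusted p between 0.00145 and 0.00759 in edgeR's test.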

How the results depend on the processing

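Few counts limit Rps10, Rpl24 and the tissue-restricted paralogs. Over 33 named genes and 30 other settings, 20 genes had an uncalled estimate that changed sign in at least 1 setting, which is counted as a shift and not as a reversal. Library totals moved the median of all genes from 0.0099 to -0.23 and upper-quartile factors to -0.14, and changes there are relative to those shifts.

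The count of ribosomal protein genes higher in model was 2. It was 1 with DESeq2 size factors, TMM without these genes, library totals, upper-quartile factors, limma-voom, no filter, a stricter filter, scaling to the ribosomal protein sum, the replicate block, and without controls 1 and 4 or models 3 and 4. It was 7 with the exonic length and GC offset and 18 with the mRNA length and GC offset, drawn with or without these genes, where Rps4x changed from -0.06 to 0.37 or 0.38. Scaling to the ribosomal protein sum makes that sum equal in all libraries, so its counts of these genes cannot check a change they share. Leaving out 1 library gave 1 to 2 higher and 0 to 1 lower. The count lower was 0; it was 1 with DESeq2, DESeq2 size factors, upper-quartile factors, no filter, scaling to the sum and both mRNA offsets, and 2 (Rps27l and Rpl5) with library totals. The median log2 fold change of tested members ran from -0.30 to 0.018 when 1 library was left out, was positive without control 1 (0.018) or control 4 (0.0041), and was 0.30 without both, 0.078 without models 7 and 8 and 0.105 with the block. The difference of mean log2 summed level was -0.11 and ran from -0.33 to 0.067 over those omissions.

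Assembly factors lower went from 0 to 1 with DESeq2, DESeq2 size factors, limma-voom, upper-quartile factors, each offset, the block or without models 7 and 8, and to 2 with library totals, and were 0 to 1 without 1 library; higher went from 19 to 7 with scaling to the sum. Pyrimidine-start mRNAs higher went from 5 to 3 with no filter, 2 with library totals, upper quartile or the block and 0 with scaling to the sum, and were 3 to 6 without 1 library; lower went from 0 to 2 with library totals and 1 with upper quartile (0 to 1 without 1 library). Regulators lower went from 3 to 5 with library totals, upper quartile or the exonic offset and to 0 with scaling to the sum, which also took higher from 4 to 2. Ribosomal proteins under other symbols went from 0 higher to 1 with the exonic offset, scaling to the sum or without controls 1 and 4 and to 2 with the mRNA offsets, and from 0 lower to 2 with library totals and 1 with upper quartile (0 to 1 without 1 library). Mitochondrial ribosomal proteins lower went from 34 to 61 with library totals, 19 with the block and 14 without controls 1 and 4, and were 23 to 54 without 1 library; 2 were higher with the mRNA offsets. Respiratory subunits lower went from 8 to 39 with library totals, 16 with upper quartile, 14 with scaling to the sum, 13 with the exonic offset, 3 without models 7 and 8, 2 with the block and 1 without controls 1 and 4, and were 3 to 25 without 1 library; higher went from 0 to 1 with DESeq2, limma-voom, no filter or the exonic offset, 3 without models 7 and 8, and 5 and 4 with the mRNA offsets (0 to 3 without 1 library). The causes were not tested.

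The replicate numbers of the titles, 1 to 6 in both groups, did not pair the libraries: the correlations of same-numbered deviations were 0.36, -0.28, -0.34, -0.0048, -0.037 and -0.10. With the replicate block 1 ribosomal protein gene was higher and 0 lower. The mRNA offsets, the scaling to the ribosomal protein sum and the omission of controls 1 and 4 were added after seeing the data.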
